A study of Rattus norvegicus with 36 samples.

Results

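The transcripts described here are those of 5 genes of the FOS and JUN families, Fos (ENSRNOG00000008015), Fosb (ENSRNOG00000046667), Jun (ENSRNOG00000026293), Junb (ENSRNOG00000042838) and Jund (ENSRNOG00000019568). They were taken by Ensembl ID from 31546 gene rows, and the symbols come with that list of IDs, since the count files hold no gene names. All 5 were among the 16029 genes with enough counts to be tested. FOS and JUN proteins are leucine zipper transcription factors that join as dimers to form AP-1, which binds short DNA elements in the promoters and enhancers of its target genes. FOS proteins need a JUN partner to bind DNA, whereas JUN proteins can also pair with each other. In the striatum, synaptic activity and psychostimulants induce several of these genes within minutes, most of them for a short time. A truncated product of Fosb, ΔFosB, is known to build up in striatal neurons of rats and mice with repeated cocaine.

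The nucleus accumbens, part of the ventral striatum, of 9 Sprague-Dawley rats, 8 weeks old, was profiled by RNA sequencing. Vulnerable and Non Vulnerable rats (3 each) were given cocaine in a conditioned place preference procedure, at 20 mg/kg intraperitoneally in sessions of 20 min, 6 h after a saline session, with 4 cocaine injections by their label. Saline rats (3) went through the same sequence with saline only, labelled as 4 injections of physiological serum. The series title speaks of rats that did or did not express the preference; no sample label ties this to the words Vulnerable and Non Vulnerable, which are used here as given. The preference test followed on the day after conditioning. The interval between that test and the taking of tissue, on which levels of short-lived transcripts depend, was not found in the labels. The extraction protocol mentions the caudate putamen as well as the accumbens. The labelled tissue could not be checked against marker genes, because 0 of the files' gene IDs were paired with a symbol by the RefSeq gene table used here. For the same reason other AP-1 partners, upstream kinases and markers of cell types were not analysed here.

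Counts of 4 technical libraries were summed for each rat, giving totals of 41213813 to 64081679 counts a rat. The members were well covered, with 283 to 4097 counts in a rat and a relative counting error of 1.56% to 5.94%. Over the 45 combinations of member and rat, technical libraries differed beyond counting error (chi-square p under 0.05) in 0, and the lowest p was 0.104. In Non Vulnerable rat 1 the 10 most counted genes took 18.2% of the counts, against 10.5% to 13.3% in the other 8 rats. Levels are in CPM, counts scaled to a common library total, after scaling by edgeR's TMM method. They compare rats for one gene, not genes with each other, since gene length was not taken into account. In bulk tissue, fewer cells of a type and less RNA per cell cannot be told apart.

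Fos encodes c-Fos, the founding member of the FOS family and a widely used marker of recent neuronal activity. Its level was 23.3, 17.5 and 15.3 CPM in Vulnerable rats 1 to 3, 11.4, 17.2 and 15.8 CPM in Non Vulnerable rats, and 8.45, 6.78 and 11.4 CPM in Saline rats. All 3 Vulnerable rats lay above all Saline rats, and the cocaine groups overlapped with each other. Non Vulnerable rat 1 and Saline rat 3 stood at almost the same level, 11.42 and 11.41 CPM, so whether these groups overlap depended on the scaling. With median-of-ratios scaling the same rats stood at 11.4 and 11.48 CPM.

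Fosb encodes FosB and, through alternative splicing, ΔFosB. Counts per gene do not separate these forms. Its level was 18.3, 35.8 and 27.0 CPM in Vulnerable rats, 14.6, 16.8 and 8.61 CPM in Non Vulnerable rats, and 9.55, 13.4 and 24.5 CPM in Saline rats. Vulnerable rats lay above all Non Vulnerable rats, by a narrow margin for Vulnerable rat 1. Saline rat 3 stood inside the range of Vulnerable rats, and Fosb spread most among the members inside groups. Its pooled within-group SD of log2 CPM was 0.57, above that of 91.3% of all genes tested, against a median of 0.18 over all genes.

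Jun encodes c-Jun, the JUN protein whose activity is raised when JNK kinases phosphorylate it. Its level was 44.4, 31.7 and 37.0 CPM in Vulnerable rats, 50.8, 41.6 and 43.8 CPM in Non Vulnerable rats, and 34.2, 36.8 and 37.6 CPM in Saline rats. Non Vulnerable rats were all above the Saline rats, and Vulnerable rat 1 fell inside the Non Vulnerable range. Jun had the smallest within-group SD of the members, 0.17 on the log2 scale.

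Junb encodes JunB, a JUN family member that is itself an immediate early gene and a weaker activator than c-Jun at many AP-1 sites. Its level was 66.9, 66.8 and 61.2 CPM in Vulnerable rats, 47.2, 35.0 and 25.3 CPM in Non Vulnerable rats, and 22.8, 33.9 and 31.7 CPM in Saline rats. The 3 Vulnerable rats were close to each other and above all 6 other rats. Non Vulnerable rats were more scattered, with a coefficient of variation of 30.6% against 5.04% in Vulnerable and 20.0% in Saline rats, and they overlapped with Saline rats.

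Jund encodes JunD, the JUN member least dependent on stimulation and a known dimer partner of ΔFosB in the striatum. Its level was 48.1, 39.4 and 40.9 CPM in Vulnerable rats, 66.4, 49.9 and 67.8 CPM in Non Vulnerable rats, and 37.0, 50.4 and 48.1 CPM in Saline rats. Vulnerable rats were all below the Non Vulnerable rats and inside the Saline range. Non Vulnerable rat 2 also fell inside the Saline range, below Saline rat 2.

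**Figure D1:**
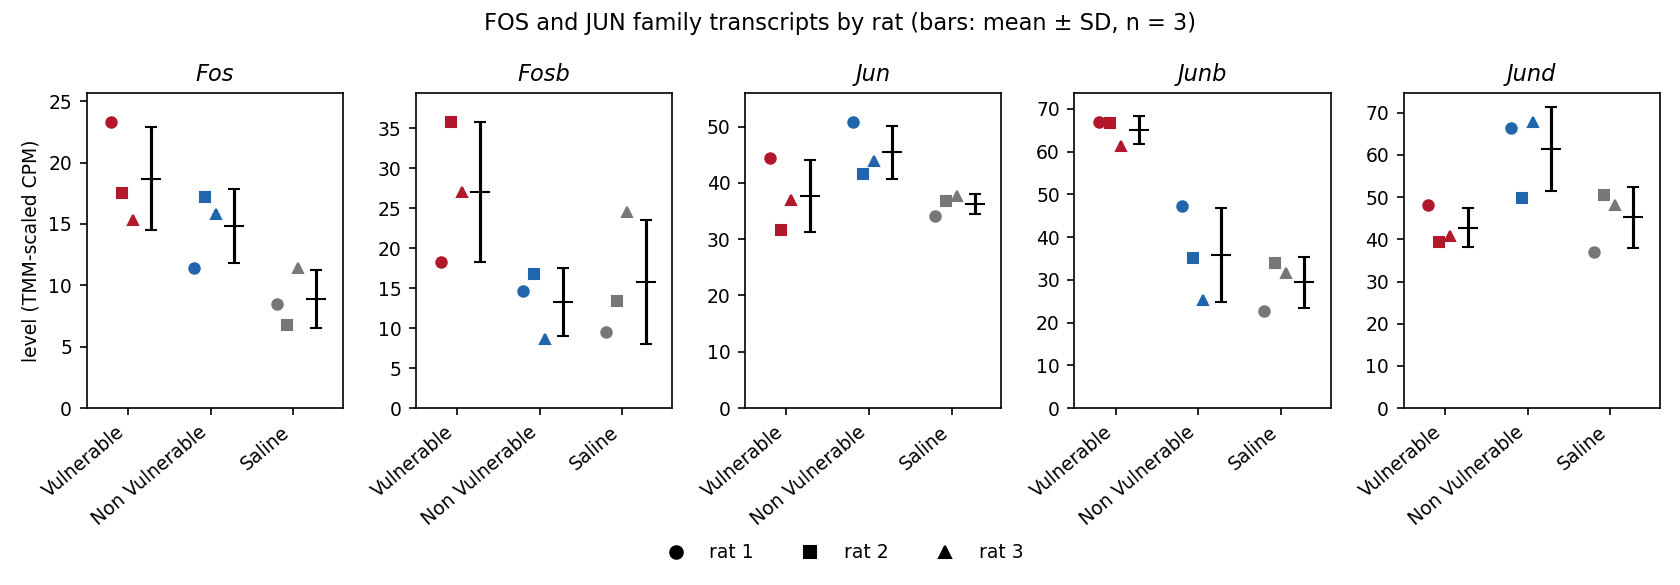
Level of each member in TMM-scaled CPM (vertical axes start at 0 and differ between genes) for each rat, with the mean ± SD of each group of 3 rats beside the points. Junb is at 61.2 CPM or more in every Vulnerable rat and at 47.2 CPM or less in every other rat, while Jund is highest in the Non Vulnerable group.

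Vulnerable and Non Vulnerable rats had the same cocaine schedule, and their comparison asks what differed with the phenotype label. Junb was higher and Jund lower in Vulnerable rats, and both passed the test. Mean Junb was 65.0 ± 3.28 CPM in the Vulnerable group and 35.8 ± 11.0 CPM in the Non Vulnerable group (SD, n = 3 each), which is 1.81-fold higher. Its log2 fold change was 0.86, SE 0.216 (edgeR quasi-likelihood test, Benjamini-Hochberg adjusted p = 0.0183). Mean Jund was 42.8 ± 4.65 CPM in the Vulnerable group and 61.4 ± 9.96 CPM in the Non Vulnerable group (SD, n = 3 each), which is 1.43-fold lower. Its log2 fold change was -0.52, SE 0.153 (edgeR adjusted p = 0.0318). These calls were 2 of 5 members, in a comparison where 31.5% of all genes tested were called. The share is near that background and does not set the AP-1 genes apart.

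Fosb showed the largest fold of the members between both cocaine groups, with means of 27.0 ± 8.77 CPM in the Vulnerable group and 13.3 ± 4.24 CPM in the Non Vulnerable group (SD, n = 3 each). Its log2 fold change of 1.02 had an SE of 0.384 and did not pass the test (edgeR adjusted p = 0.0714). A fold of at least 2 was found for 1 of 5 members, Fosb, and for 8.10% of all genes. Fos had a log2 fold change of 0.33 with a 95% interval of -0.19 to 0.86 (edgeR adjusted p = 0.29). It was 0.20 without Vulnerable rat 1, 0.20 as well without Non Vulnerable rat 1, and 0.51 without Vulnerable rat 3. Jun had a log2 fold change of -0.27 with an interval of -0.55 to 0.01 (edgeR adjusted p = 0.127). Its value was -0.16 when Vulnerable rat 2 was left out and likewise -0.16 when Non Vulnerable rat 1 was. Neither gene passed the test, and these intervals do not show that the groups were alike. Groups did not overlap for 3 of 5 members, Fosb, Junb and Jund, against 46.7% of all genes. For these 3 the two-sided exact permutation test gave p = 0.1, the smallest value that 3 rats against 3 allow.

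Calls between both cocaine groups were lost when some single rats were left out, most often for Jund. Junb was no longer called without Vulnerable rat 2 or Non Vulnerable rat 2 (log2 0.84 in both, edgeR adjusted p = 0.0535 and 0.062). Its log2 fold change was 0.86 with all rats, and the genes called in these fits fell from 5050 to 2820 and 2798. Jund was no longer called when rat 2 or 3 of the Vulnerable group, or rat 1 or 3 of the Non Vulnerable group, was left out, with log2 fold changes between -0.46 and -0.44 and edgeR adjusted p between 0.0776 and 0.118. Called genes numbered 2820 and 3050 without these Vulnerable rats, and 5841 and 3035 without these Non Vulnerable rats. Without Non Vulnerable rat 1, Junb had a log2 fold change of 1.12 (edgeR adjusted p = 0.00423). DESeq2, another count test, called Fosb as well as Junb and Jund, 3 of 5 members against 38.1% of all genes. Fosb was also called without Saline rat 3 and when Saline rats were kept out of the fit (edgeR adjusted p = 0.0365 and 0.0495). In these fits 4966 and 3942 genes were called.

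**Figure D2:**
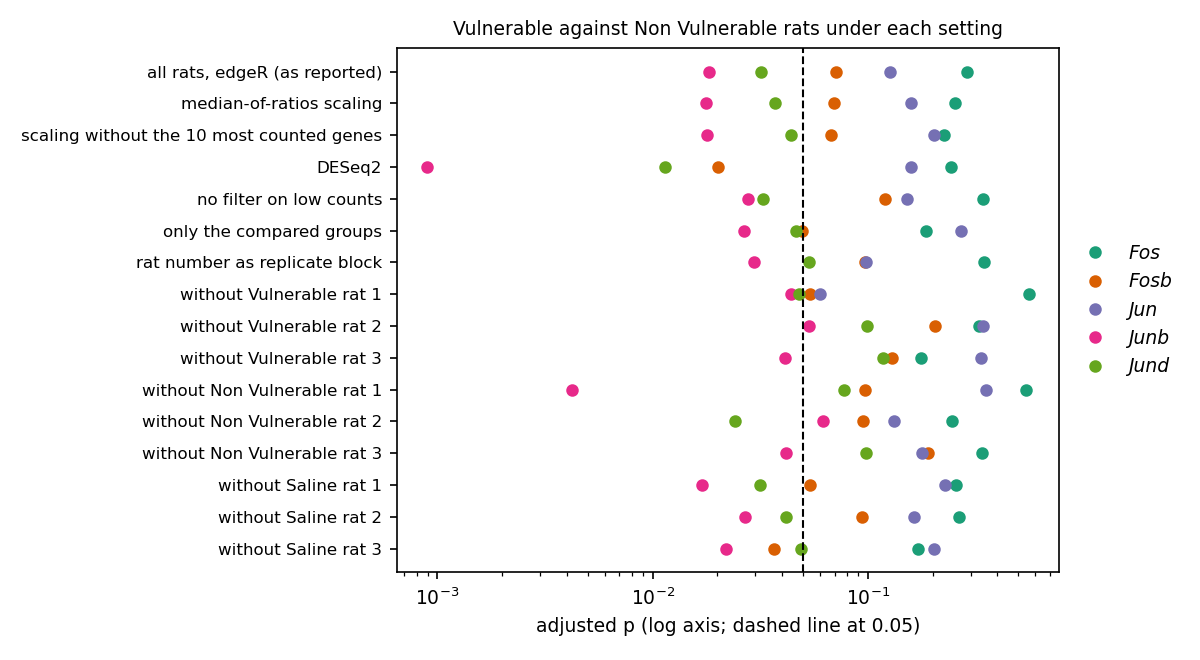
Adjusted p of each member for Vulnerable against Non Vulnerable rats (horizontal log axis, dashed line at 0.05) under each way of analysing the counts, with rows for each rat left out. Junb and Jund sit close to the line in many rows, and Fos and Jun lie to its right in all of them.

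The sequences before the starts of Junb and Jund are shown because these members were called in opposite directions between the cocaine groups. RefSeq promoters (build GRCr8, 250 bases before to 50 after the start) were at hand for 3 of 5 members, Fosb, Junb and Jund. They were searched on both strands for the cyclic AMP response element TGACGTCA, for its core TGACG, which lies inside the full element, for the AP-1 site TGACTCA and for CCATATTAG, a serum response element lacking its last base. The windows of Junb, chr19:40080876-40081175 on the plus strand, and of Jund, chr16:18769722-18770021 on the minus strand, are given 5′ to 3′ with matches in capitals.
Junb: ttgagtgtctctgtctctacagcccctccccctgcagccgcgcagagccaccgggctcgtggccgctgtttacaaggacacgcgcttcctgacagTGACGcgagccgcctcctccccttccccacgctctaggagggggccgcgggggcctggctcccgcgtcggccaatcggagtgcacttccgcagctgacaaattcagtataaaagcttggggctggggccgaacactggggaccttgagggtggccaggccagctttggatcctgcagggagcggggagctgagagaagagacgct
Jund: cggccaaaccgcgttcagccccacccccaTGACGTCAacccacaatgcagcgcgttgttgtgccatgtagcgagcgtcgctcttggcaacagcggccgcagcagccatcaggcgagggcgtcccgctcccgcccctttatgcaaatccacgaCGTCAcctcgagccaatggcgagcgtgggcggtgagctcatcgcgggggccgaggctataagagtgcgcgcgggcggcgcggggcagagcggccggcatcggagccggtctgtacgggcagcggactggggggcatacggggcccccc

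The Jund window held 1 full cyclic AMP response element, at bases 30 to 37, which 1.83% of all 33469 promoters in the table hold, and another core on the minus strand at bases 153 to 157. The Junb window held 1 core, at bases 96 to 100, which 21.2% of all promoters hold. The Fosb window held none of these motifs. The AP-1 site was found in 4.63% of all promoters and the shortened serum response element in 0.0956%, and neither was in the 3 windows. GC content was 65.3% in the Junb, 69.7% in the Jund and 47.7% in the Fosb window, against a median of 51.7% over all promoters. A match is a string of letters and was not tested as a binding site.

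Vulnerable rats were set against Saline rats to ask what differed from rats handled alike without cocaine. Vulnerable rats are a subset of the cocaine rats, chosen by phenotype label, so cocaine and that choice cannot be told apart. Fos and Junb stood 2.10-fold and 2.21-fold above the Saline level in Vulnerable rats, without passing the adjusted test. Fos averaged 18.7 ± 4.16 CPM in Vulnerable and 8.88 ± 2.34 CPM in Saline rats (SD, n = 3 each), with log2 fold change 1.07, SE 0.236 (edgeR adjusted p = 0.897). Junb averaged 65.0 ± 3.28 CPM in Vulnerable and 29.4 ± 5.88 CPM in Saline rats (SD, n = 3 each), with log2 fold change 1.14, SE 0.217 (edgeR adjusted p = 0.819). The 95% intervals were 0.54 to 1.6 for Fos and 0.65 to 1.63 for Junb. An adjusted p depends on all genes of a comparison, so it does not rank a gene between comparisons.

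In this comparison edgeR called 0 of 5 members and 0.00% of all genes. At an unadjusted p under 0.05 stood 2 of 5 members, Fos and Junb, and 807 of 16029 genes. By unadjusted p, Junb ranked 10 (p = 0.000533) and Fos 17 (p = 0.00143) of 16029 genes in the edgeR fit. For Vulnerable against Non Vulnerable rats, Junb ranked 2846 and Jund 3997, and for Non Vulnerable against Saline rats Fos ranked 2978. For Vulnerable against Saline rats, DESeq2 called 2 of 5 members, again Fos (adjusted p = 0.0106) and Junb (adjusted p = 0.00182), and 0.180% of all genes. A fold of at least 2 was seen for these 2 members and for 1.35% of all genes. Groups did not overlap for the same 2 members, against 11.9% of all genes, with p = 0.1 in the two-sided exact permutation test for each. The median log2 fold change over the 5 members was 0.77 here, 0.33 for Vulnerable against Non Vulnerable rats and 0.33 for Non Vulnerable against Saline rats, where the medians over all genes were 0.00, -0.04 and 0.02. With each rat left out in turn, the log2 fold change ran from 0.88 to 1.32 for Fos and from 0.98 to 1.26 for Junb, and edgeR's adjusted p was at least 0.258 for Fos and at least 0.27 for Junb.

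The other members gave no call against Saline in Vulnerable rats. Fosb had a log2 fold change of 0.77 with a 95% interval of -0.09 to 1.64 (edgeR adjusted p = 0.897). It was 1.27 without Saline rat 3, the Saline rat of highest Fosb, and 0.51 without Saline rat 1. Jun had a log2 fold change of 0.06 (interval -0.22 to 0.34) and Jund one of -0.08 (interval -0.42 to 0.27).

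**Figure D3:**
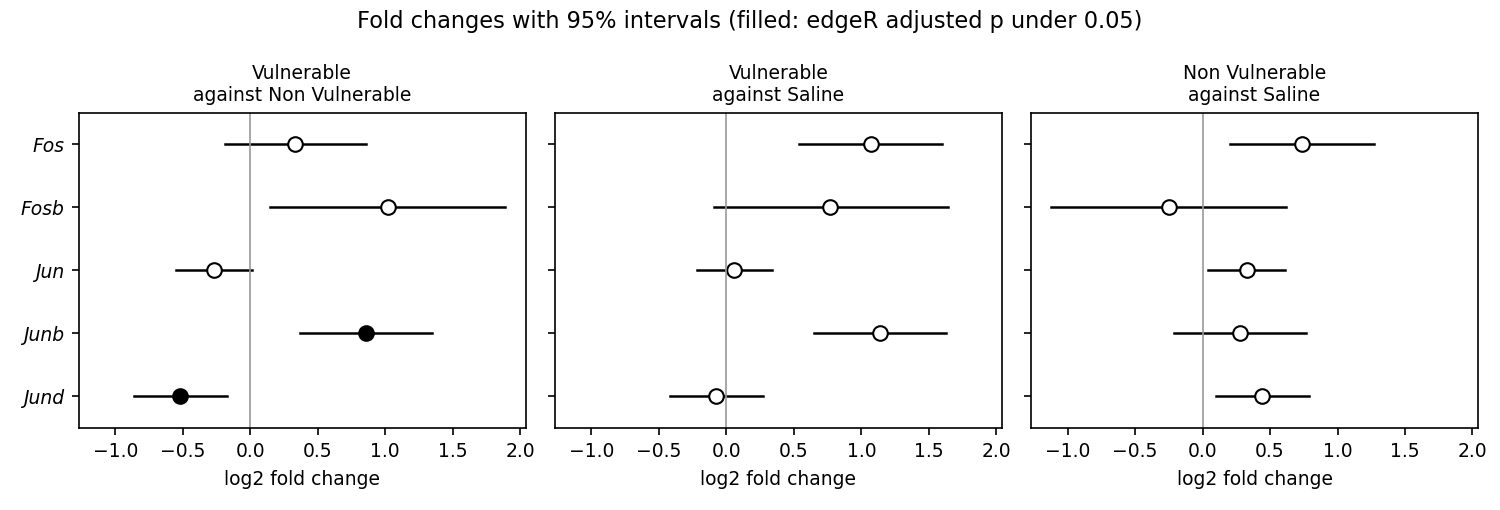
Log2 fold change of each member (horizontal axis) with its 95% interval in the 3 comparisons; filled points passed edgeR's test at an adjusted p under 0.05. Junb and Jund are filled on opposite sides of 0 for Vulnerable against Non Vulnerable rats, and Fos and Junb lie near 1 for Vulnerable against Saline rats.

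Non Vulnerable rats were set against the same Saline rats, so both comparisons with Saline share those animals. Fos, Jun and Jund were higher and Fosb lower on average in Non Vulnerable rats, and 0 of 5 members were called by edgeR, against 14.7% of all genes. Fos averaged 14.8 ± 3.01 CPM in Non Vulnerable and 8.88 ± 2.34 CPM in Saline rats (SD, n = 3 each), with log2 fold change 0.74, SE 0.236 (edgeR adjusted p = 0.0666). Jund averaged 61.4 ± 9.96 CPM in Non Vulnerable and 45.2 ± 7.19 CPM in Saline rats (SD, n = 3 each), with log2 fold change 0.44 and SE 0.153 (edgeR adjusted p = 0.0821). The log2 fold change of Jund was 0.27 without Saline rat 1. Jun averaged 45.4 ± 4.76 CPM in Non Vulnerable and 36.2 ± 1.75 CPM in Saline rats (SD, n = 3 each), with log2 fold change 0.33 and SE 0.125 (edgeR adjusted p = 0.107). These 3 members had an unadjusted p under 0.05, as had 5244 of 16029 genes.

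Junb had a log2 fold change of 0.28 in Non Vulnerable against Saline rats, with a 95% interval of -0.21 to 0.77 (edgeR adjusted p = 0.397). It was 0.02 when Non Vulnerable rat 1 was left out and 0.48 when rat 3 of that group was. Fosb had a log2 fold change of -0.25 with an interval of -1.12 to 0.62 (edgeR adjusted p = 0.698), and its direction turned without Saline rat 3, to 0.20. DESeq2 called Fos (adjusted p = 0.0199) and Jund (adjusted p = 0.0422), 2 of 5 members against 24.0% of all genes. Fos was also called by edgeR without Non Vulnerable rat 1 (log2 0.87, adjusted p = 0.036) and without Saline rat 3 (log2 0.94, adjusted p = 0.0386). In these fits 3615 and 1929 genes were called, against 2351 with all rats. Groups did not overlap for 2 of 5 members, Fos and Jun, against 35.0% of all genes, and for Fos this rested on the near tie of 11.42 and 11.41 CPM given above. A fold of at least 2 was seen for 0 of 5 members and for 3.82% of all genes.

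Set beside each other, the members fell into different orders over the groups. Mean Fos was highest in Vulnerable, intermediate in Non Vulnerable and lowest in Saline rats, and no pair of groups passed edgeR's test. Mean Junb had the same order, and only Vulnerable against Non Vulnerable rats passed that test. Its log2 fold change in Vulnerable rats was 1.14 against Saline (edgeR unadjusted p = 0.000533) and 0.86 against Non Vulnerable rats (unadjusted p = 0.00325). The adjusted p also depends on the other genes, of which edgeR called 0.00% in the former comparison and 31.5% in the latter. Mean Fosb was highest in Vulnerable rats, and the Saline mean (15.8 ± 7.74 CPM, SD, n = 3) and the Non Vulnerable mean did not differ beyond their spread. Mean Jun and Jund were highest in Non Vulnerable rats. Their means in Vulnerable and Saline rats did not differ beyond their spread.

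**Figure D4:**
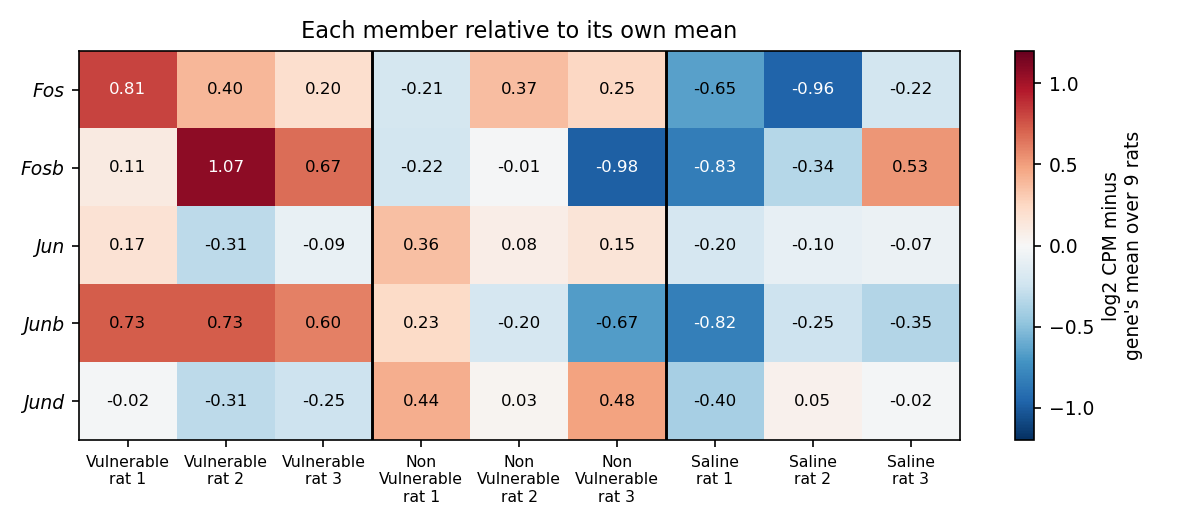
Log2 CPM of each member in each rat (columns) minus that gene's mean over the 9 rats; red is above and blue below the mean. Fos is highest in Vulnerable rat 1 at 0.81 and Fosb in Vulnerable rat 2 at 1.07, while Junb is nearly even over the 3 Vulnerable rats, at 0.73, 0.73 and 0.60.

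Inside groups some members were highest or lowest in the same rat and others were not. Jun and Jund were both highest in Vulnerable rat 1 and lowest in Vulnerable rat 2, and both lowest in Non Vulnerable rat 2 and in Saline rat 1. Their highest rats differed in the latter groups. These were Non Vulnerable rat 1 for Jun and rat 3 for Jund, and Saline rat 3 for Jun and rat 2 for Jund. Among Vulnerable rats, Fos was highest in rat 1, where Fosb was lowest. Among Non Vulnerable rats, Fosb and Junb were both lowest in rat 3, where Jund was highest. Likeness of pattern was measured as the root mean square difference of log2 CPM over the 9 rats, after each gene was centred on its own mean. By this measure Jun and Jund were the closest members, at 0.163, and Fosb and Jund the farthest apart, at 0.813. The measure grows with a gene's own range over the rats, which was 0.68 for Jun, 0.88 for Jund and 2.05 for Fosb (log2). Junb was nearest to Fosb among the members, at 0.424, and Fos was nearest to Junb, at 0.496.

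The gene of most similar pattern was sought for each member among the 5142 to 14076 genes whose range over the rats was at least 0.5 of the member's own. The gene most like Jun was ENSRNOG00000038902, at a root mean square difference of 0.057 over the 9 rats. The gene most like Jund was ENSRNOG00000052025, at 0.0658. For Fosb it was ENSRNOG00000001414, at 0.189, and for Junb ENSRNOG00000012307, at 0.184. The gene nearest to Fos stood farther off, at 0.281. Medians over the genes compared were 0.327 for Jun, 0.413 for Jund, 0.843 for Fosb, 0.708 for Junb and 0.699 for Fos. The files and the gene table used here give these IDs no names.

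Ratios of counts between members within a rat do not depend on how rats are scaled to each other. Their absolute size depends on gene length and carries no meaning between genes, and they were examined after the levels had been seen, so they are described without a test. The ratio of Junb to Jund was 1.39, 1.69 and 1.50 in Vulnerable rats 1 to 3, 0.711, 0.701 and 0.373 in Non Vulnerable rats, and 0.616, 0.672 and 0.659 in Saline rats. Every Vulnerable rat was above every other rat in this ratio, and Non Vulnerable rat 3 was the lowest of all 9. Vulnerable rats lay above all Non Vulnerable rats in Junb and below them in Jund. The ratio therefore had to separate these groups and adds no further evidence of a difference between them. The ratio of Jun to Junb was 0.475 to 0.664 in Vulnerable, 1.08 to 1.73 in Non Vulnerable and 1.09 to 1.50 in Saline rats, again with the Vulnerable rats apart. Of the 10 ratios, 5 did not overlap between Vulnerable and Non Vulnerable rats, 4 between Vulnerable and Saline rats, and 0 between Non Vulnerable and Saline rats. The same ratios were not computed for other pairs of genes, so nothing here is particular to the members. The ratio of Jun to Jund overlapped between all groups, from 0.805 to 0.923 in Vulnerable, 0.646 to 0.834 in Non Vulnerable and 0.731 to 0.926 in Saline rats.

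**Figure D5:**
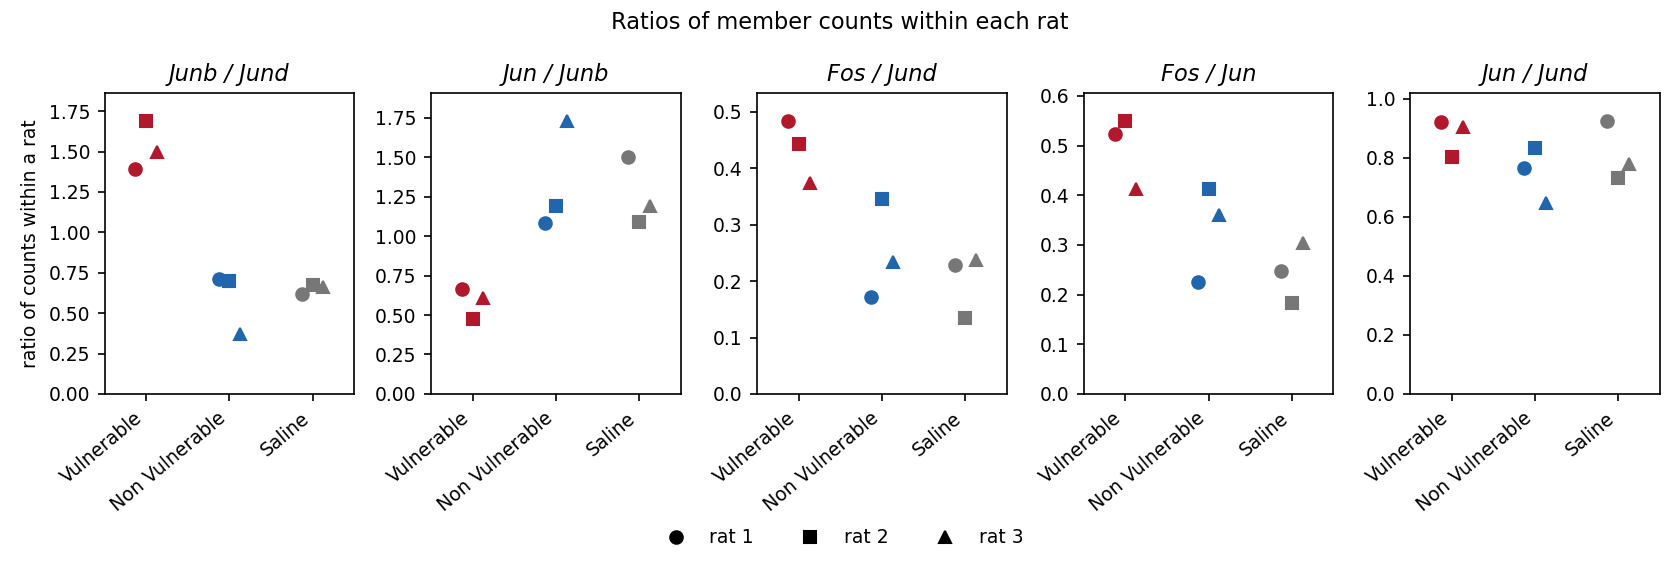
Ratio of raw counts of 2 members within each rat (vertical axes start at 0 and differ between panels), for 5 of the 10 ratios, chosen after their values were seen. Junb over Jund is 1.39 or more in Vulnerable rats and 0.711 or less in the other 6 rats, while Jun over Jund overlaps between the groups.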

How the data were processed

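PolyA-selected RNA was sequenced from strand-specific libraries, per the labels' protocols. Per the submitters' processing notes, bcl2fastq 2.17.1.14, STAR and HTSeq 0.5.3 were used. Not given in the sources used here are the genome build, the annotation and whether counting used strand, so overlapping genes may share reads. The authors deposited raw read counts per Ensembl gene ID, 1 table for each of 36 libraries (10160424 to 16297870 counts each).

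Libraries were summed by rat. The labels number the rats, which were taken as separate animals. Genes kept by filterByExpr were scaled by TMM and fitted with edgeR 4.0.16 (R 4.3.3, robust glmQLFit) on the 9 rats together, 1 coefficient a group. Benjamini-Hochberg adjustment took in all 16029 genes tested; called means adjusted p under 0.05. SEs come from the quasi-likelihood F statistic, and 95% intervals from its t distribution. For centred log2 CPM the prior count was 2. The fit was tested on simulated data. Alternatives were DESeq2 1.42.0, other scalings and filters, a replicate block and leaving out each rat. All 5 members are named by rule, and for 4 of them, by ID, the gene of most similar pattern. The members, lists and tests were chosen with earlier results of these data known.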

Additional observations from a re-analysis of the deposited data

Results flagged for a closer look

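For Junb and Jund the departure from the shared Saline rats differed between Vulnerable and Non Vulnerable rats, by 0.86 and -0.52 on the log2 scale. The Saline level cancels in this difference, so the test is that of Vulnerable against Non Vulnerable rats (edgeR adjusted p = 0.0183 for Junb and 0.0318 for Jund), not a separate one.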

How the results depend on the processing

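Of 225 values (15 log2 fold changes under 15 alternatives each), 206 kept their direction and side of the threshold, 7 lost the call, 9 gained it and 3 changed direction. Only Junb and Jund between Vulnerable and Non Vulnerable rats were called with all rats, so all 7 losses were theirs. The other log2 fold changes had no call to lose, and some alternatives left out a rat of neither group compared. The 206 is therefore not a measure of how stable the calls were. The direction changed for Jun and Jund in Vulnerable against Saline rats, which ran from -0.07 to 0.17 and from -0.21 to 0.01 with a rat left out, and for Fosb in Non Vulnerable against Saline rats, from -0.56 to 0.20. With a rat left out, 16177 to 16243 genes were tested. Between Vulnerable and Non Vulnerable rats, 0 to 3 members (0 without Vulnerable rat 2) and 2798 to 5841 genes were then called. Between Non Vulnerable and Saline rats, 0 to 1 members and 251 to 3615 genes were called (251 without Saline rat 2, 3615 without Non Vulnerable rat 1). DESeq2 called 2 members and 28 genes for Vulnerable against Saline rats, and 2 members and 3724 genes for Non Vulnerable against Saline rats. Keeping Vulnerable rats out of the fit, 1164 genes were called for Non Vulnerable against Saline rats. Leaving the 10 most counted genes out of the scaling gave 657 higher and 1541 lower genes there, against 1091 and 1260. The causes were not tested. Rats of the same number share only a number: deviations from group means correlated at -0.137 to 0.19 across genes in the 9 same-numbered pairs, and 2 of 9 rats were most like a rat of their own number. With the rat number as a replicate block, 1 member, Junb, was called between Vulnerable and Non Vulnerable rats (edgeR adjusted p = 0.053 for Jund), and 5160 genes against 5050 without it.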
